A study of Mus musculus with 14 samples.

Results

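Genes induced by interferon, with the guanylate-binding protein (GBP) family and the interferon-linked poly(ADP-ribose) polymerase (PARP) genes, were followed in mouse liver after a single sleep deprivation of 6 h. The list held 46 genes, chosen by symbol with earlier results of these data known. A gene was measured where the array held a probe set with exactly 1 gene symbol, and the brightest such probe set was used. This gave 41 of the 46 genes, out of 22180 genes in all. The other 5 (Oas1a, Gbp2, Parp10, Dtx3l and Ifi44) had no such probe set and are not analysed here. Liver RNA came from 14 male mice of the inbred strain C57BL/6J, 7 in the sleep deprivation group and 7 in the control group, with 100 ng of total RNA labelled per array. The study asked how such a deprivation acts on glucose tolerance and liver fat. Sleep was disturbed by gentle handling, on a water platform or by changing cages, but which method the arrays followed is not stated in the labels. They give neither age nor the time of collection, and state no infection or interferon treatment of either group. Each numbered sample is taken as 1 mouse, and p-values measure the spread between these samples.

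Interferons are cytokines released when a cell senses the nucleic acids of viruses or microbes. Type I interferons act through the receptor of IFNAR1 and IFNAR2 and the kinases JAK1 and TYK2 to form ISGF3, a complex with STAT2 and IRF9 that binds the interferon-stimulated response element (ISRE). Interferon gamma acts through another receptor and on another promoter element, the gamma-activated site (GAS). Target genes encode sensors, antiviral effectors and further transcription factors, and hepatocytes as well as the immune cells of the liver express many of them at a basal level without infection.

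To show where these elements lie, the RefSeq promoter windows (build GRCm38.p6, 250 bases before to 50 after a start site) were searched on both strands for the core of the ISRE, which is GAAA, any 2 bases and GAAA again, and for TTCNNNGAA, the core of the GAS, which reads the same on both strands. On the opposite strand the ISRE core reads as a pair of TTTC runs. Windows were found for 29 of the 41 genes. The ISRE core occurred in 15 of these 29, against 3.99% of the 27025 genes with a window, and the GAS core in 7 of 29, against 9.55%. The stretches below belong to genes that fell after sleep deprivation (Irf1, Ifit1, Gbp7, Parp4) and to 2 that did not pass the test (Isg15, Bst2). Capitals mark the cores found by either motif, and overlapping matches run together. For Ifit1 and Parp4, whose windows overlap neighbouring genes, the cores and what lies between them are shown without flanks.
Irf1, chr11:53769909-53769947, + strand, 1 GAS core: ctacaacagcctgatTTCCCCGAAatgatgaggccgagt
Ifit1, chr19:34640785-34640813, + strand, 2 ISRE cores: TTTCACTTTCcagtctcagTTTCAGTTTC
Isg15, chr4:156200860-156200911, - strand, 3 overlapping ISRE cores: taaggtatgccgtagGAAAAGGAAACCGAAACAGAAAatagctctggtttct
Gbp7, chr3:142530215-142530307, + strand, 2 GAS cores and 1 ISRE core: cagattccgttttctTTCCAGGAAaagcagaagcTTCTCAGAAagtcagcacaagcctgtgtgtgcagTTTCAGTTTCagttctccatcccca
Parp4, chr14:56575469-56575484, + strand, 2 overlapping ISRE cores: GAAAAAGAAAGTGAAA
Bst2, chr8:71537572-71537623, - strand, 1 GAS core and 2 ISRE cores, all overlapping: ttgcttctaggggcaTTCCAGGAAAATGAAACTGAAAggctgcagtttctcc
Among genes with a window, the ISRE core was present in 5 of the 12 that fell and in 10 of the 17 that did not pass, and the GAS core in 2 of 12 and 5 of 17. A match describes letters in this window and is not a measured binding site.

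Expression was lower after sleep deprivation in 16 of the 41 genes (39.0%) and higher in 0 (limma, adjusted p under 0.05 over all genes). Over all 22180 genes, 4.62% were called lower and 3.88% higher, 8.50% in either direction. Since the list was made with earlier results known, these shares are a description and were not tested against each other. The genes that fell were Irf1, Irf7, Ifit1, Oasl1, Mx1, Gbp7, Gbp11, Parp3, Parp4, Parp12, Parp14, Ifih1, Ddx58, Zbp1, Rnf213 and Samd9l. At an unadjusted p under 0.05, 24 of the 41 passed, 0 of them higher, where 19.4% of all genes passed in either direction. The median log2 difference of the 41 was -0.20, against -0.0048 for all genes, and the difference was below 0 in 36 of 41 (51.6% of all genes). The number falling was between 14 and 17 when 1 mouse was left out, and it was 14 without any of control mice 4, 8 or 12 or sleep-deprived mice 1, 5, 10 or 13. It was 12 with the sample number as a covariate. Sleep-deprived mice held most of the low numbers, so this fit cannot fully separate number from group. The labels do not say what the number stands for. The differences were small, and 3 of the 16 (Gbp11, Gbp7 and Ifit1) reached 0.5 in size on the log2 scale.

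**Figure D1:**
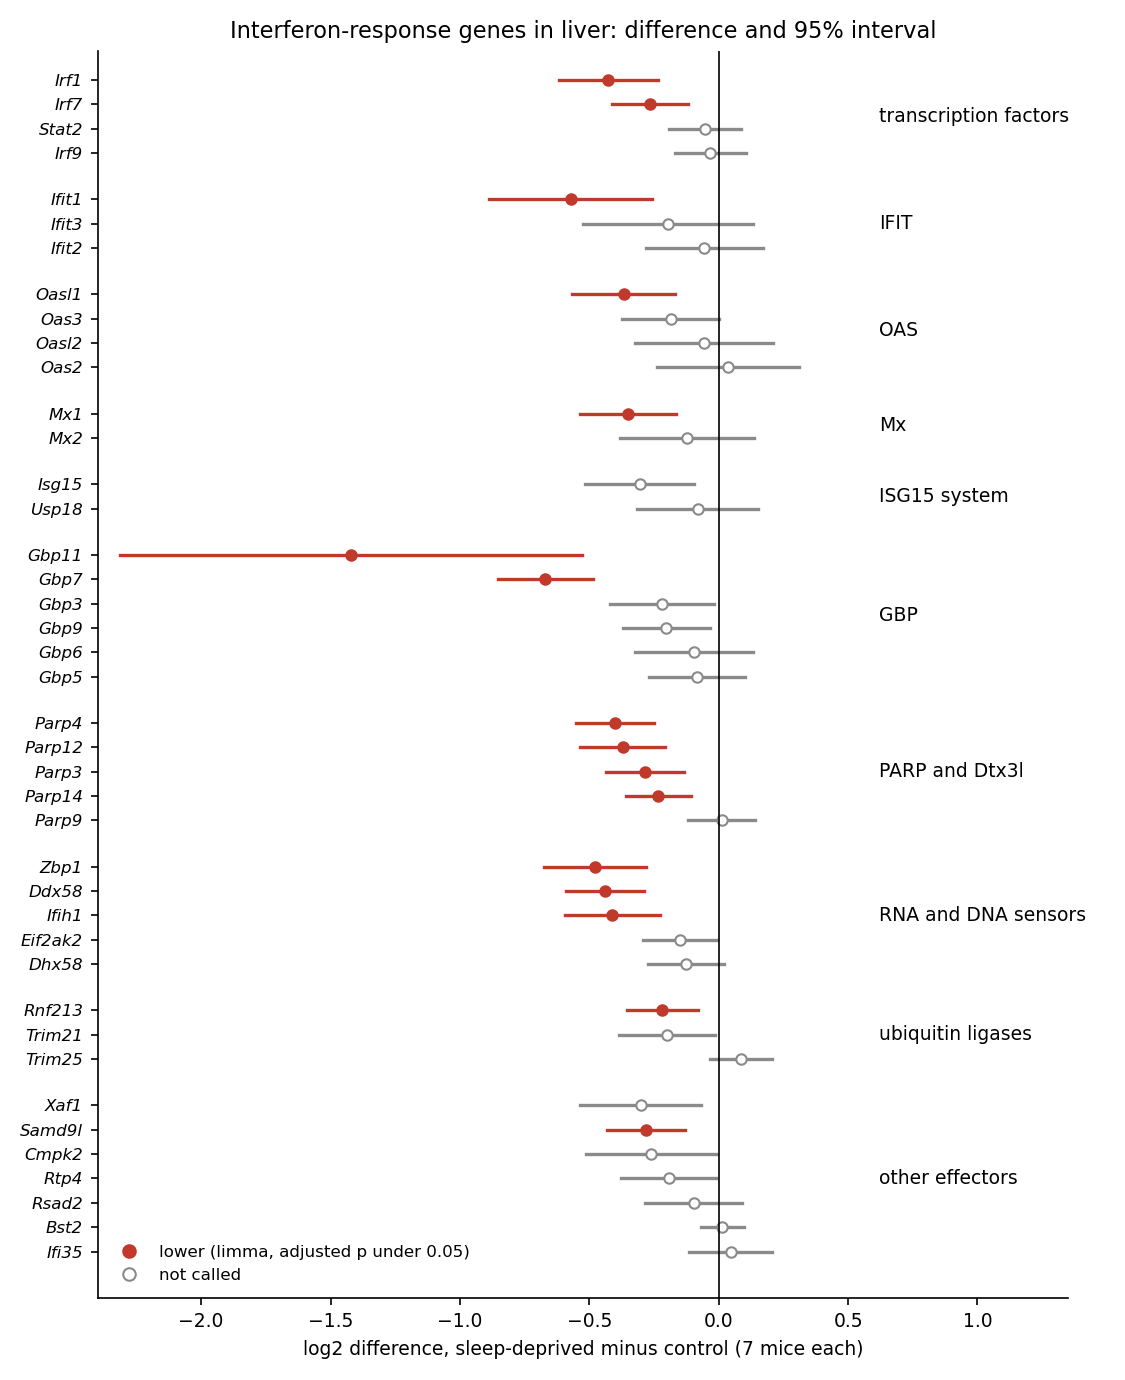
Log2 difference (sleep-deprived minus control, 7 mice each) of each of the 41 measured genes, grouped by role. Points are the limma estimates, bars their 95% intervals, and filled points are the 16 genes with an adjusted p under 0.05, all of them lower.

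In 6 of the 41 genes (14.6%) all 7 sleep-deprived mice lay below the lowest control, against 1.79% of all genes in that direction and 3.13% with separate groups in either direction. These were Gbp7, Parp3, Parp4, Parp14, Ddx58 and Zbp1. In the other 10 genes that fell, the groups overlapped.

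Of 4 transcription factors of the pathway, 2 fell. Irf1, which activates interferon and antigen presentation genes, had log2 levels from 5.13 to 5.83 in controls (median 5.54) and from 4.87 to 5.33 after sleep deprivation (median 5.03). Only control mouse 7, at 5.13, lay within the sleep-deprived range, and 4 sleep-deprived mice lay below every control. The log2 difference of Irf1 was -0.43 ± 0.091 (moderated SE, as below; limma, adjusted p = 0.00465). Irf7, the amplifier of type I interferon transcription, ran from 6.93 to 7.26 in controls (median 7.16) and from 6.70 to 7.02 after sleep deprivation (median 6.93). Its difference was -0.27 ± 0.070 (limma, adjusted p = 0.0202), and with the sample number as a covariate it was -0.24 (adjusted p = 0.0706). Stat2 and Irf9, which act in ISGF3, gave small values. Stat2 had a mean of 7.18 ± 0.13 among controls and of 7.12 ± 0.12 among sleep-deprived mice (± SD, n = 7 per group, as below), a difference of -0.054 with a 95% interval from -0.19 to 0.085. Irf9 was at 6.61 ± 0.14 and 6.58 ± 0.097, a difference of -0.032 with an interval from -0.17 to 0.11. Neither interval reaches the difference of Irf1, but both overlap the interval of Irf7, from -0.41 to -0.12.

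Sensors of foreign nucleic acid fell in 3 of 5 genes. Ddx58 encodes RIG-I, a helicase that detects viral RNA ends. It ran from 6.53 to 6.80 in controls (median 6.57) and from 5.98 to 6.42 after sleep deprivation (median 6.13), so that every sleep-deprived mouse was below every control. The difference was -0.44 ± 0.072 (limma, adjusted p = 0.000423), a level lower by 1.36-fold. Ifih1 encodes MDA5, a helicase that detects long viral RNA. Its levels ran from 7.78 to 8.18 in controls (median 7.95) and from 7.20 to 7.80 (median 7.62) after sleep deprivation. Sleep-deprived mouse 2, at 7.80, was above the lowest control and the other 6 were below it (difference -0.41 ± 0.088, limma, adjusted p = 0.0045). Zbp1, a sensor of Z-form nucleic acid that can start necroptosis, ran from 5.64 to 6.27 in controls (median 5.80) and from 5.13 to 5.52 after sleep deprivation (median 5.42). The groups of Zbp1 did not overlap, and the difference was -0.48 ± 0.094 (limma, adjusted p = 0.00227). Dhx58, which encodes the related helicase LGP2, was at 5.27 ± 0.10 in controls and 5.15 ± 0.12 after sleep deprivation, and Eif2ak2, the RNA-activated kinase PKR that halts translation, at 5.99 ± 0.12 and 5.84 ± 0.11. Neither passed (limma, adjusted p = 0.356 and 0.232).

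**Figure D2:**
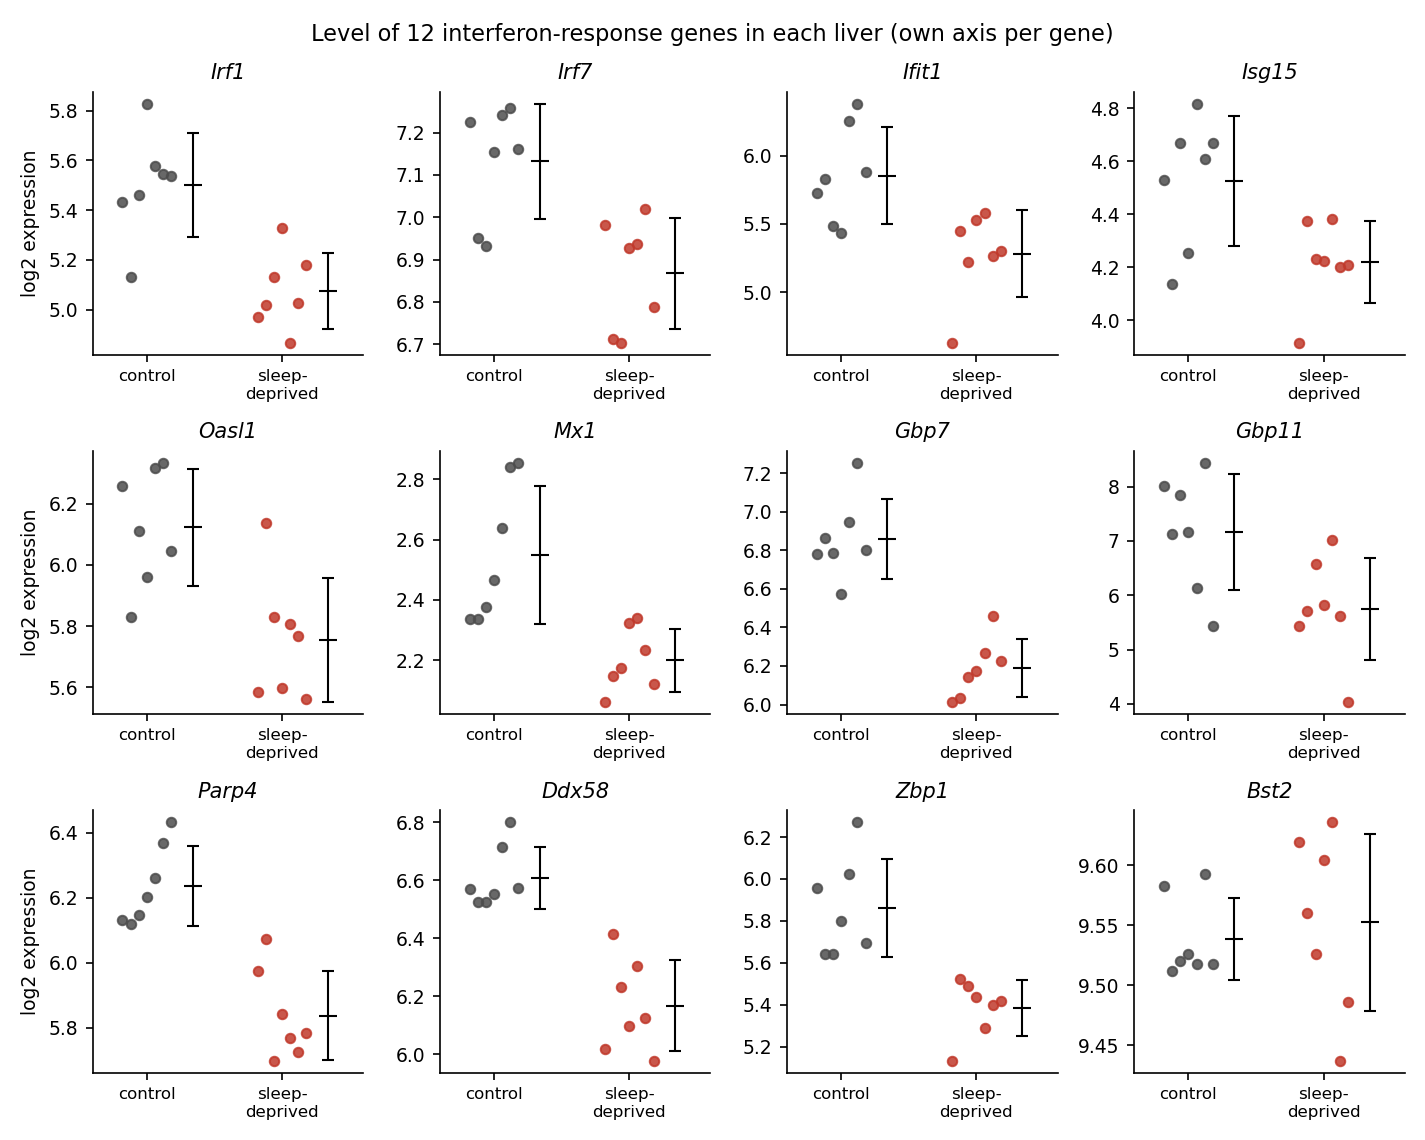
Log2 expression in each mouse for 12 genes, with an axis of its own for each gene. Points are mice, and the bars beside them give mean ± SD of 7 mice. In Gbp7, Parp4, Ddx58 and Zbp1 all sleep-deprived mice lie below all controls. In every other gene shown, Bst2 among them, the groups overlap.

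Among the PARP genes measured, 4 of 5 fell, and 3 of these had groups that did not overlap. These enzymes transfer ADP-ribose to proteins, and several of them act against viruses. Parp4, the vault-associated member, ran from 6.12 to 6.43 in controls (median 6.20) and from 5.70 to 6.07 after sleep deprivation (median 5.78), a difference of -0.40 ± 0.072 (limma, adjusted p = 0.00103). Parp12, a mono-ADP-ribosyltransferase that restricts RNA viruses, ran from 7.96 to 8.38 (median 8.09) in controls and from 7.57 to 7.99 (median 7.78) after sleep deprivation, with sleep-deprived mice 2 and 6 inside the control range. Its difference was -0.37 ± 0.079 (limma, adjusted p = 0.00439). Parp3, which acts in DNA break repair and is no classical interferon target, went from 6.24 ± 0.15 to 5.95 ± 0.12, a difference of -0.29 ± 0.072 (adjusted p = 0.0148). Parp14 went from 6.80 ± 0.096 to 6.56 ± 0.099, a difference of -0.23 ± 0.060 (adjusted p = 0.0166; 0.0679 with the sample number as a covariate). Parp9, the partner of the ubiquitin ligase DTX3L, was at 6.89 ± 0.14 and 6.90 ± 0.046, with an interval of the difference from -0.12 to 0.14.

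The other genes of the PARP family that were looked at, with the tankyrases, Tiparp and Parg, had 0 of 9 lower (2 at an unadjusted p under 0.05) and 1 higher. That gene was Tnks, the tankyrase that modifies axin and telomere proteins, which rose by 0.32 ± 0.058 (limma, adjusted p = 0.00101). With the mean of its probe sets in place of the brightest, the rise of Tnks was 0.23 (limma, adjusted p = 0.0244).

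Guanylate-binding proteins are interferon-induced GTPases that attack the vacuoles of intracellular microbes, and 2 of the 6 measured fell. Gbp7 ran from 6.58 to 7.25 in controls (median 6.80) and from 6.01 to 6.46 after sleep deprivation (median 6.18), with no overlap. Its difference of -0.67 ± 0.088, a level lower by 1.59-fold, had the smallest p of the 41 genes (limma, adjusted p = 4.71e-05). Gbp11 had the largest difference and the widest spread, from 5.44 to 8.44 in controls (median 7.16) and from 4.04 to 7.01 after sleep deprivation (median 5.72). Control mice 11 and 14, at 6.14 and 5.44, lay among the sleep-deprived mice, and sleep-deprived mouse 13 had the lowest value. The difference was -1.42 ± 0.43 (limma, adjusted p = 0.0429). It was called in the 4 fits without control mouse 11 or 14 or sleep-deprived mouse 3 or 6, with a value of -1.71 without control mouse 14, and in none of the fits without another mouse.

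Gbp3 went from 4.05 ± 0.18 to 3.84 ± 0.19 and Gbp9, at 4.70 ± 0.17 in controls, had a difference of -0.20 ± 0.080, and neither passed (limma, adjusted p = 0.201 and 0.144). Gbp5 (2.84 ± 0.19 and 2.75 ± 0.15) and Gbp6 (2.24 ± 0.30 and 2.14 ± 0.13) were dim. Gbp3, Gbp5 and Gbp7 are neighbours on chromosome 3, and Gbp6, Gbp9 and Gbp11 lie in another cluster. The GBP genes are close paralogs, as are members of the IFIT and OAS families, and probes may share signal between them.

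Of the 3 IFIT genes, which encode proteins that bind viral RNA lacking host cap methylation, Ifit1 fell. It ran from 5.43 to 6.38 in controls (median 5.83) and from 4.63 to 5.58 after sleep deprivation (median 5.30). Sleep-deprived mouse 1, at 4.63, stood below the other sleep-deprived mice, which began at 5.22. The difference of Ifit1 was -0.57 ± 0.15 (limma, adjusted p = 0.0201), and -0.45 with the sample number as a covariate (adjusted p = 0.098). Ifit3 went from 4.90 ± 0.34 to 4.70 ± 0.36 and Ifit2 from 3.49 ± 0.25 to 3.43 ± 0.18, and both were not called (adjusted p = 0.58 and 0.858).

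The OAS family makes or resembles enzymes that make 2'-5'-linked oligoadenylate, the activator of RNase L. Here Oasl1, an OAS-like protein without that activity that holds back translation of Irf7, was the 1 of 4 that fell. It ran from 5.83 to 6.33 in controls (median 6.11) and from 5.56 to 6.14 after sleep deprivation (median 5.77). Sleep-deprived mouse 2, at 6.14, was above the control median, and 5 mice were below every control (difference -0.37 ± 0.095, limma, adjusted p = 0.0178). Oasl2 was at 4.84 ± 0.26 in controls and 4.79 ± 0.29 after sleep deprivation, Oas3 at 4.03 ± 0.17 and 3.84 ± 0.16, and Oas2 at 4.90 ± 0.37 and 4.94 ± 0.15. None of these 3 passed, and the value of Oas2 in control mouse 12, at 5.70, was far above the other controls.

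Mx1 and Mx2 encode dynamin-like GTPases that block virus replication. Mx1 was dim, at 2.55 ± 0.23 in controls and 2.20 ± 0.10 after sleep deprivation, with 6 of 7 sleep-deprived mice below every control. Its difference was -0.35 ± 0.090 (limma, adjusted p = 0.0164), and -0.26 with the sample number as a covariate (adjusted p = 0.093). C57BL/6 mice are known to carry a defective Mx1 allele. Mx2 was at 3.58 ± 0.28 and 3.46 ± 0.25 (adjusted p = 0.687).

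Isg15, the ubiquitin-like modifier, did not pass, with log2 levels from 4.14 to 4.82 in controls (median 4.61) and from 3.91 to 4.38 after sleep deprivation (median 4.22). All 7 sleep-deprived mice were below the control mean, and 1 was below the lowest control. The difference was -0.31 ± 0.10 (limma, adjusted p = 0.071), and the call was made without control mouse 7 (adjusted p = 0.0175), without control mouse 9 (0.0401) or among the brighter genes alone (0.042). Usp18, which removes ISG15 and restrains the interferon receptor, was at 6.30 ± 0.26 and 6.22 ± 0.23 (adjusted p = 0.79).

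Ubiquitin ligases gave 1 of 3 lower. Rnf213, a giant ligase that coats intracellular bacteria and lipid droplets, went from 7.89 ± 0.15 to 7.68 ± 0.097. Its difference was -0.22 ± 0.065 (limma, adjusted p = 0.0438), which was not called in 9 of the 14 fits without 1 mouse (adjusted p up to 0.0965). Those 9 left out control mice 4, 8, 11 or 12 or sleep-deprived mice 1, 3, 5, 10 or 13. Trim21, the cytosolic antibody receptor, was at 5.48 ± 0.13 and 5.28 ± 0.21 (adjusted p = 0.211). Trim25, the ligase that acts on RIG-I, had the largest positive difference of the 41, 0.086 ± 0.057, at 7.98 ± 0.084 in controls and 8.06 ± 0.11 after sleep deprivation (adjusted p = 0.468).

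Among 7 other effectors, Samd9l, a translation inhibitor with antiviral and growth-restraining activity, fell from 4.04 ± 0.10 to 3.76 ± 0.12. Its difference was -0.28 ± 0.073 (limma, adjusted p = 0.0178), with 6 of 7 sleep-deprived mice below every control. Xaf1, a proapoptotic gene, was at 4.96 ± 0.25 and 4.66 ± 0.22 (adjusted p = 0.111, and 0.0224 without sleep-deprived mouse 6). Cmpk2, a mitochondrial nucleotide kinase, was at 4.82 ± 0.29 and 4.56 ± 0.23 (adjusted p = 0.241), and Rtp4, a chaperone of membrane receptors, at 6.96 ± 0.18 and 6.77 ± 0.19 (adjusted p = 0.225). Rsad2, which encodes viperin, the maker of a chain-terminating nucleotide, was at 5.23 ± 0.17 and 5.13 ± 0.18 (adjusted p = 0.643). Ifi35 was at 6.86 ± 0.14 and 6.90 ± 0.16. Bst2, which encodes tetherin, the tether of budding virions, had the highest level of the 41 and the narrowest spread among controls, at 9.54 ± 0.034 and 9.55 ± 0.074. The 95% interval of its difference ran from -0.070 to 0.099, above the difference of each gene that fell.

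The level of each gene bears on these values, since the table holds no detection calls and differences of dim genes are compressed. The mean log2 level of the median gene on the array was 3.99, and 8 of the 41 genes lay below it (Mx1, Gbp6, Gbp5, Ifit2, Mx2, Samd9l, Oas3 and Gbp3). Of these 8, 2 fell, and of the other 33, 14 fell.

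**Figure D3:**
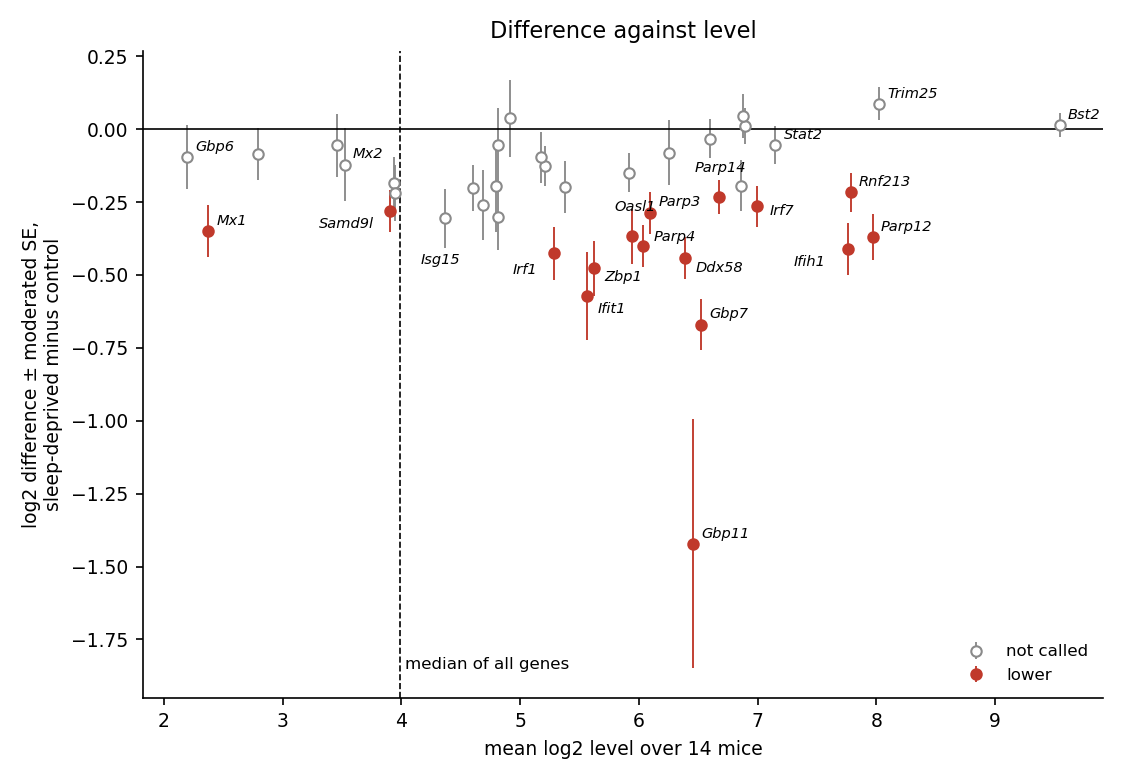
Log2 difference (sleep-deprived minus control) with its moderated SE against the mean log2 level over 14 mice for the 41 genes. The dashed line is the median level of all genes, 3.99. Of the 16 genes that fell (filled), Mx1 and Samd9l lie left of it.

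Mice of the same group differed in these genes. Taking each gene relative to its mean over the 14 mice, the average over the 41 genes lay between 0.022 (mouse 9) and 0.33 (mouse 12) in controls and between -0.22 (mouse 1) and -0.054 (mice 2 and 6) after sleep deprivation. Control mouse 12 had the highest control value in 21 of the 41 genes and the lowest in 0. Sleep-deprived mouse 1 had the lowest value of its group in 11 genes and the highest in 0. These averages describe the mice and carry no test, since the genes were listed with results of these data known.

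**Figure D4:**
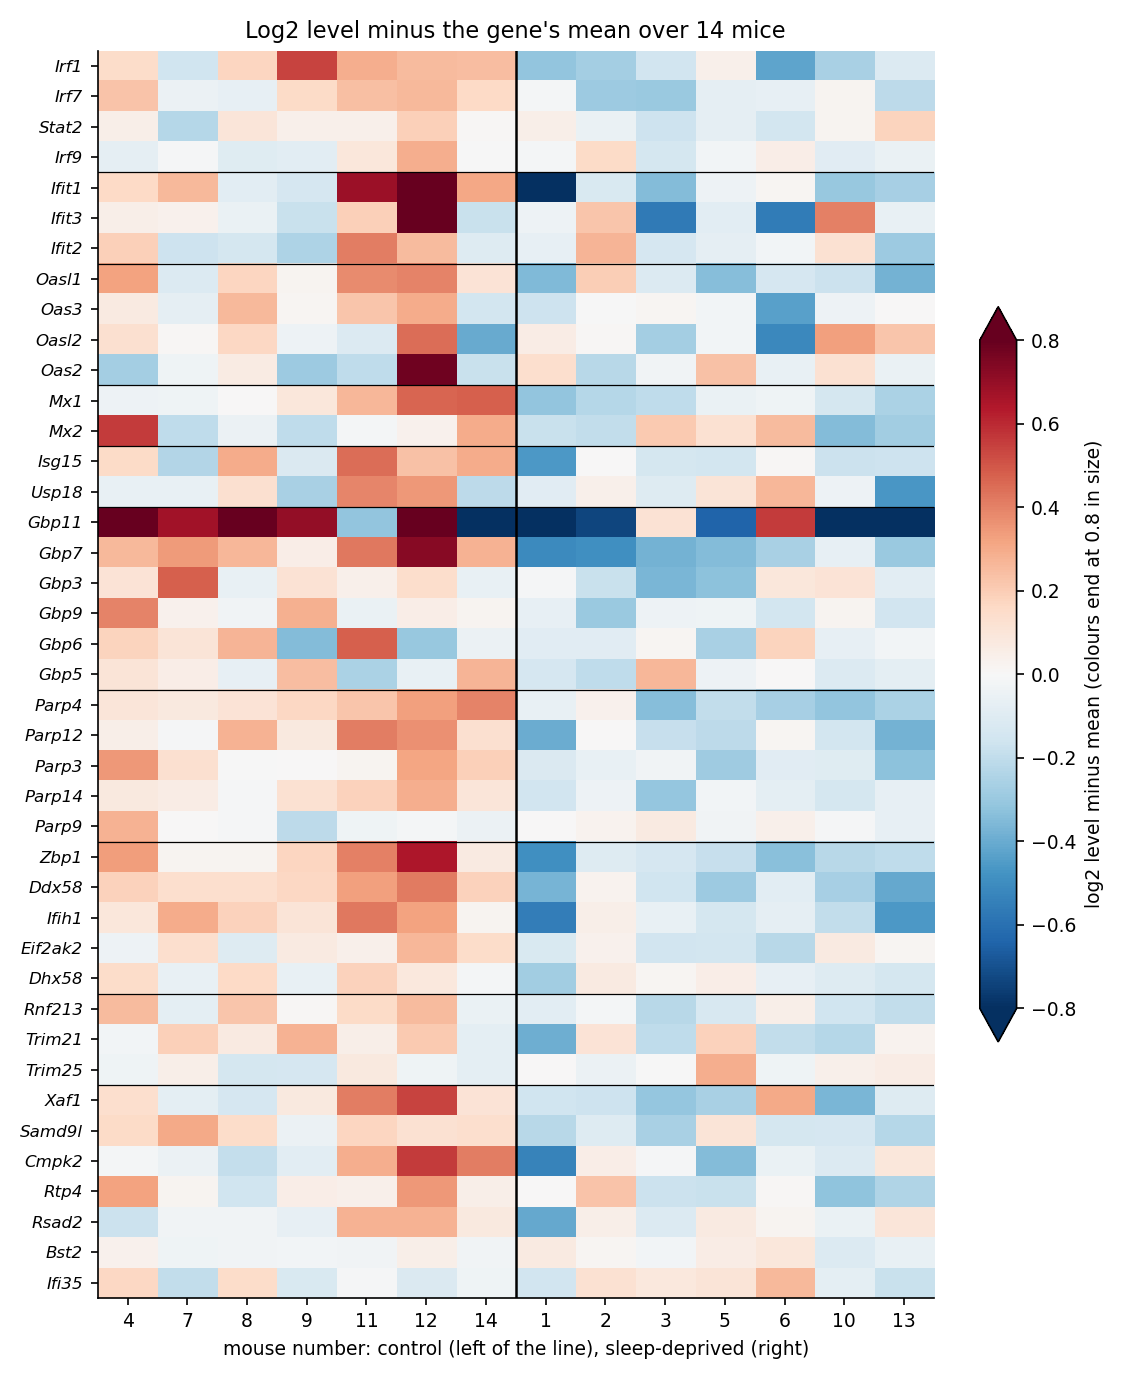
Log2 level of the 41 genes in each mouse minus the gene's mean over the 14 mice, ordered by role, with controls left and sleep-deprived mice right of the line. Control mouse 12 lies below the mean in 5 of the 41 genes and sleep-deprived mouse 1 in 34.

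Within groups, the genes tended weakly to vary together from mouse to mouse. With each gene centred on its group mean, the average correlation over the 820 pairs of genes was 0.174 across the 14 mice, and 71.0% of the pairs were above 0. The average over all pairs of genes on the array was 0.0021. Without control mouse 12 the average over the 820 pairs was 0.102, and leaving out any other mouse gave 0.161 to 0.189. By gene, the average with the other genes ran from -0.21 (Gbp5) to 0.35 (Ifit1 and Zbp1). The closest pairs were Ifit1 with Rsad2 (r = 0.891), Oasl1 with Ddx58 (0.856) and Parp12 with Ddx58 (0.839). The most negative were Eif2ak2 with Ifi35 (-0.654), Ifit3 with Gbp5 (-0.65) and Irf1 with Gbp3 (-0.65). The average over pairs of GBP genes was 0.0083. These values share arrays and their normalization and are given as a description.

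Genes upstream of these were counted beside all genes, of which 8.50% passed in either direction and 19.4% had an unadjusted p under 0.05. Among receptors, kinases and inhibitors of the interferon pathway 0 of 11 measured genes passed, with 3 at an unadjusted p under 0.05, all lower. When 1 mouse was left out 0 to 2 passed. With robust estimation, array weights, brighter genes alone or quantile normalization again, 1 passed as lower. Ifnar1 was at 8.08 in controls and 8.05 after sleep deprivation, a difference of -0.035 with an interval from -0.17 to 0.097. Ifnar2 was at 9.22 and 9.21, with an interval from -0.10 to 0.073. For Ifngr1, the interferon gamma receptor chain, the interval ran from -0.21 to 0.16. Jak1 had a difference of 0.099 ± 0.051 (limma, adjusted p = 0.305), Tyk2 of -0.18 ± 0.069 (adjusted p = 0.13) and Jak2, which serves the interferon gamma receptor, of -0.24 ± 0.076 (adjusted p = 0.0544). Of the interferon genes themselves, 0 of 8 passed, and 0 at an unadjusted p under 0.05. Ifnb1 and Ifng were dim, at 2.29 and 2.96 in controls, and Ifna2, Ifnk and Ifne also lay below the median gene at 3.99. Ifnl2, Ifna4 and Ifnl3 lay above it, with mean levels over all mice of 6.39, 5.21 and 4.71.

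In the sensing pathways that lead to interferon, 1 of 14 genes fell and 1 rose, with 2 lower and 3 higher at an unadjusted p under 0.05. The number falling was 2 with array weights, among brighter genes alone, and without control mouse 4 or sleep-deprived mouse 2 or 6, and the number rising was 2 with the sample number as a covariate. Tlr3, the endosomal receptor of viral RNA, had a difference of -0.54 ± 0.097 (limma, adjusted p = 0.00101), from 5.56 ± 0.15 to 5.01 ± 0.24. Myd88, the adaptor of most other Toll-like receptors, rose by 0.28 ± 0.070 (adjusted p = 0.0134), from 7.08 ± 0.067 to 7.36 ± 0.18.

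Other interferon-stimulated genes, listed from textbook knowledge but with earlier results of these data known, had 8 of 40 lower and 1 higher. Over all genes 4.62% were lower and 3.88% higher, and the median difference of this list was -0.038. At an unadjusted p under 0.05, 15 of the 40 were lower and 3 higher, where 19.4% of all genes passed in either direction. With the sample number as a covariate 3 of the list passed as higher. Gbp10, a further guanylate-binding protein, went from 7.72 ± 0.25 to 6.78 ± 0.34, a difference of -0.94 ± 0.13 (limma, adjusted p = 9.25e-05). Ube2l6, the E2 enzyme that transfers ISG15, had -0.35 ± 0.058 (adjusted p = 0.000519), the immunity-related GTPase Irgm2 -0.51 ± 0.10 (adjusted p = 0.00312) and Herc6, the mouse ligase for ISG15, -0.38 ± 0.084 (adjusted p = 0.00607). The other 4 that fell, named here after their values were seen, were Iigp1, Ddx60, Nmi and Nlrc5. Nlrc5 was not called in 8 of the 14 fits without 1 mouse and Nmi in 3. Tor3a rose by 0.41 ± 0.12 (limma, adjusted p = 0.0392) but was not called in 9 of the 14 fits that left out a mouse (control mice 4, 7, 8, 11 or 14 or sleep-deprived mice 1, 3, 5 or 10; adjusted p up to 0.0879), and lay at the threshold without control mouse 12 (adjusted p = 0.05 when rounded).

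Bulk liver RNA cannot tell fewer cells of a type from less RNA per cell. The hepatocyte markers Alb and Ttr were at 13.3 and 13.0 in controls, and 2 of 8 hepatocyte genes rose, Apoa1 by 0.12 and Cps1 by 0.11 (limma, adjusted p = 0.0277 and 0.0417), calls lost in 4 and 10 of the 14 fits without 1 mouse. At an unadjusted p under 0.05, 3 hepatocyte genes were higher and 1 lower, Asgr1 at -0.15 (adjusted p = 0.0527). Markers of Kupffer cells passed in 0 of 8 genes (0 at an unadjusted p under 0.05), with a summed log2 level from 9.12 to 10.3 in controls and from 9.22 to 9.91 after sleep deprivation. Markers of T and NK cells (0 of 11; 6.78 to 7.04 and 6.83 to 6.93), plasmacytoid dendritic cells (0 of 4; 4.79 to 5.05 and 4.86 to 5.04), monocytes and neutrophils (0 of 6; 5.88 to 7.83 and 6.48 to 7.99) and stellate cells (0 of 4; 9.82 to 10.3 and 9.88 to 10.4) did not pass either. At an unadjusted p under 0.05 stood 2 of the T and NK cell markers, 1 of the stellate markers and 0 of the other 2 lists. Single T and NK cell markers had mean levels of 2.01 to 4.22 and plasmacytoid markers of 2.11 to 3.48, with the median gene at 3.99. In the monocyte and neutrophil list Lcn2 was at 6.38 and the next, Ly6g, at 3.09. Most markers of these 3 lists were thus dim, and their counts say little about the cells. Of 3 B cell markers the dim Cd79a fell, at -0.38 ± 0.091 (limma, adjusted p = 0.0112; summed level 4.61 to 4.86 and 4.46 to 4.66). Of 5 sinusoidal endothelial markers 2 rose, Lyve1 by 1.13 ± 0.18 and Pecam1 by 0.29 ± 0.080 (limma, adjusted p = 0.000422 and 0.0243; summed level 9.71 to 10.1 and 9.85 to 10.3). Kdr of the same list was at -0.18 (limma, adjusted p = 0.114), the 1 of the 5 that was lower at an unadjusted p under 0.05. Of 4 biliary markers Sox9 rose by 0.56 ± 0.16 (limma, adjusted p = 0.0359; summed level 6.25 to 6.64 and 6.56 to 7.49). Leaving out 1 mouse lost the call of Pecam1 in 6 and of Sox9 in 7 of the 14 fits. Their part in the values of the interferon-stimulated genes was not tested.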

How the data were processed

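RNA of 14 liver samples was measured on Affymetrix whole-transcript arrays. The authors deposited log2 expression per probe set, made with RMA, per the submitters' processing notes. RMA's version, its annotation and the genome build were not given in the sources used here, and coordinates come from RefSeq promoters alone. Of 41345 probe sets, 23521 had 1 gene symbol in GEO's platform annotation, 1814 had several and 16010 were not listed; 23328 matched RefSeq by Entrez ID. Array medians were 3.443 to 3.491, and pairs of arrays correlated at 0.984 to 0.9903. The number of arrays limits the precision.

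For each gene, sleep-deprived mice were compared with controls in limma 3.58.1 (R 4.3.3; lmFit, then eBayes with a trend on intensity). The test was two-sided, with Benjamini-Hochberg adjustment over 22180 genes and a threshold of 0.05, and the code was tested on simulated data. Every measured gene of the list is described. From each further list up to 4 genes that passed were named by smallest p, and Ifnar1, Ifnar2, Ifngr1, Jak1 and Tyk2 whatever their result. The genes and lists were chosen with earlier results of these data known. Alternatives were other moderation, array weights, brighter genes alone, other handling of probe sets, other scaling, the sample number as a covariate, a threshold on size and leaving out each mouse.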

Additional observations from a re-analysis of the deposited data

Results flagged for a closer look

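In 10 of 82 sets of 7 mice (41 genes in 2 groups), 1 mouse lay far from the rest by Dixon's test (gap over range above 0.568), which chance does in about 1 in 20 sets. Sleep-deprived mouse 1 was low in Ifit1 (4.63, next 5.22), Isg15 (3.91, next 4.20) and Rsad2 (4.77, next 5.07). Control mouse 12 was high in Ifit3 (5.61, next 4.99) and Oas2 (5.70, next 4.99). Sleep-deprived mouse 6 was low in Oas3 (3.50, next 3.77) and high in Xaf1 (5.12, next 4.71). Sleep-deprived mouse 5 was high in Trim25 (8.31, next 8.08) and Samd9l (4.01, next 3.80), and control mouse 7 in Gbp3 (4.42, next 4.09). Of these genes, Ifit1 and Samd9l fell after sleep deprivation, and both also fell in all 14 fits without 1 mouse.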

How the results depend on the processing

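The count of genes that fell was 16 of 41 and lay between 12 (sample number as a covariate) and 16 in the other fits of all mice, and between 14 and 17 when 1 mouse was left out, while 0 rose in any of them. It was 3 when a log2 difference of at least 0.5 was also required. All genes changed numbered 1886, and 1541 to 1893 when 1 mouse was left out. In every fit that tested them, whatever the size, 10 genes fell (Ddx58, Gbp7, Ifih1, Irf1, Oasl1, Parp12, Parp3, Parp4, Samd9l and Zbp1), and 14 fell in all 14 fits without 1 mouse, the exceptions being Gbp11 and Rnf213. Without the intensity trend, Gbp11 (limma, adjusted p = 0.0588) and Rnf213 (0.0684) were not called, and with robust estimation Gbp11 was not (0.144). Rnf213 was also not called after quantile normalization again (limma, adjusted p = 0.0696). The cause was not tested. No gene that passed changed direction.

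Values near 0 turned sign in 11 genes that did not pass. With the sample number as a covariate Parp9 was at -0.038, Rsad2 at 0.0027, Ifi35 at -0.0053, Bst2 at -0.013, Ifnar1 at 0.013, Ifnar2 at 0.020 and Ifngr1 at 0.030. After quantile normalization again Parp9 was at -0.0013 and Ifnar2 at 0.0089. When 1 mouse was left out, the values ran from -0.023 to 0.058 (Parp9), -0.027 to 0.0062 (Ifnar2), -0.074 to 0.0050 (Ifnar1), -0.063 to 0.036 (Ifngr1), -0.0093 to 0.17 (Oas2), -0.13 to 0.026 (Oasl2), -0.11 to 0.0077 (Ifit2) and -0.060 to 0.013 (Irf9). No paired analysis was possible because the labels give no pairing of the samples. Arrays without detection calls limit what can be said of the 8 genes below the median level.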
